A study of Mus musculus with 6 samples.

Results

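The comparison described here was between epididymal white adipose tissue of diet-cycled mice and of mice kept on a high-fat diet throughout. It rested on 4 messenger RNA sequencing libraries, chosen by the group code in their titles: F-H-L (n = 2) and F-H (n = 2), out of 6 libraries in all. All mice were wild-type C57BL/6, and the tissue was labelled as taken at 35 weeks of age. Diets began at 6 weeks of age. The high-fat diet held 60% of its energy as fat and the low-fat diet 10%. F-H mice stayed on the high-fat diet. F-H-L mice had 9 weeks of high-fat diet and then 10 cycles, each of 1 week of low-fat diet followed by 1 week of high-fat diet. The remaining libraries, coded F-L, came from mice on the low-fat diet throughout and were left out of the fit. No label states which code belongs to which diet, and the codes were tied to the diets by their letters. The code F-H-L ends in L although a cycle, as the labels describe it, ends with high-fat feeding, and the diet of the last week before sampling is therefore uncertain. The labels did not say whether the libraries of a group came from separate mice, or whether a library pooled several, so p-values measure the spread between these libraries, which may be technical.

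The 4 libraries held 41926916 to 49230161 counts assigned to genes. Of 48897 genes in the deposited table, 19779 passed the filter on low counts and were tested. Levels are given below in CPM, counts scaled to the library total after adjustment by edgeR's TMM factors, in the order replicate 1 and replicate 2, with F-H called continuous high fat and F-H-L called cycled. The library labels named fat, and its markers were abundant in all 4 libraries. Adipoq, which encodes the hormone adiponectin, stood at 721 and 1216 CPM under continuous high fat and 1936 and 1743 CPM after cycling. The F-H libraries differed more from each other than the F-H-L libraries did. Between replicates, 2772 of 15169 genes with a mean of at least 1 CPM differed over 2-fold in F-H, against 1047 in F-H-L. Lymphocyte transcripts were high in F-H replicate 1 only, and transcripts of the reproductive tract, which lies against this fat pad, were lowest in F-H replicate 1. Both sets are given with their values below. The labels named no batch or date.

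White adipose tissue stores triglyceride in adipocytes and holds many other cells in its stroma. In obesity, macrophages gather around dying adipocytes, take up their lipid and degrade it in lysosomes. Such lipid-associated macrophages are known for the surface receptor Trem2, the glycoprotein Gpnmb, the integrin CD11c (Itgax) and high levels of lysosomal enzymes. Adipocytes themselves make fatty acids from glucose through the lipogenic enzymes Acly, Acaca, Fasn, Elovl6 and Scd1, which are switched on by insulin and by carbohydrate, and secrete hormones such as leptin, adiponectin and resistin.

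Between the diets, 289 genes passed an adjusted p under 0.05 (edgeR's quasi-likelihood test, Benjamini-Hochberg over all genes tested), or 1.46% of those tested. Of these, 200 (1.01%) were lower in F-H-L and 89 (0.45%) were higher. Counts of called list members below are to be read against these shares. The 12 largest falls among well-expressed genes included the macrophage genes Gpnmb, Trem2, Mmp12 and Atp6v0d2. The rises included adipocyte genes such as Retn and Rbp4, and genes of the male reproductive tract with few counts or none in F-H. The median log2 fold change of the 200 genes that fell was -2.45, with a range from -1.15 to -7.74. Of the genes that rose, 40 had a mean under 1 CPM in F-H and 12 one from 1 to 5 CPM. The other 37 had log2 fold changes between 1.15 and 2.81.

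The number of calls depended on single libraries. It went from 289 to 0 without F-H-L replicate 1 and to 0 without F-H-L replicate 2, with 2490 and 2172 genes at an unadjusted p under 0.05. It went up to 2123 without F-H replicate 1 and to 6663 without F-H replicate 2. DESeq2 called 3559 genes, among them all 289. The adjusted p-values of the 289 genes lay between 0.0345 and 0.0496, close under the threshold, whereas 5294 genes had an unadjusted p under 0.05. All 289 genes kept their sign in every alternative fit in which they were tested. The groups did not overlap for any of the 289, so leaving out a library could hardly turn a sign. The kept signs therefore say nothing of their stability.

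**Figure D1:**
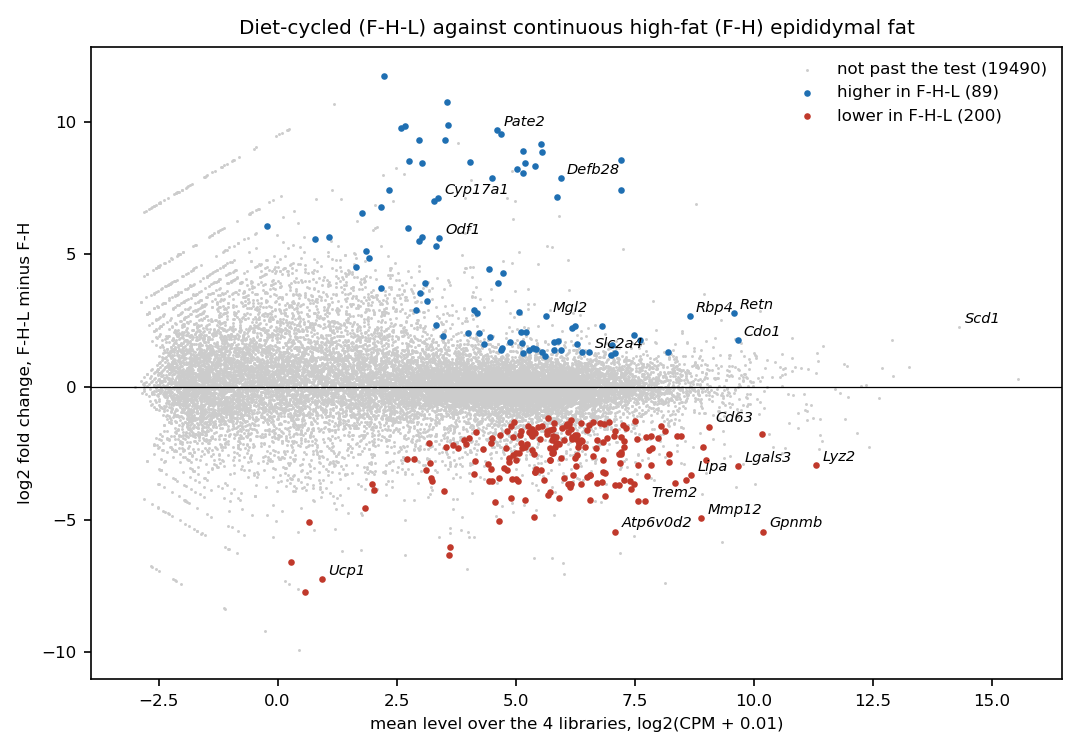
Each point is one of the 19779 genes tested; the horizontal axis is the mean level over the 4 libraries, log2(CPM + 0.01), and the vertical axis the log2 fold change, F-H-L minus F-H. The 200 genes that fell (red) include the highly expressed Gpnmb, Mmp12, Lgals3 and Lyz2, while the 89 that rose (blue) include reproductive tract genes such as Defb28 and Pate2 at the top and the adipocyte genes Retn, Rbp4 and Slc2a4 lower down. Scd1, labelled among the grey points, did not pass the test.

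Gpnmb, a transmembrane glycoprotein of macrophages loaded with lipid (chromosome 6, 49036518 to 49058182, plus strand, mm10), stood at 2069 and 2545 CPM under continuous high fat and 62.5 and 43.4 CPM after cycling. Trem2, the lipid-sensing receptor that this macrophage state depends on (chromosome 17, 48346401 to 48352276, plus strand), stood at 399.7 and 402 CPM under continuous high fat and 23.4 and 17.4 CPM after cycling. Itgax, the integrin subunit CD11c (chromosome 7, 128129530 to 128150657, plus strand), stood at 281 and 222 CPM under continuous high fat and 19.4 and 19.2 CPM after cycling. In each of these genes the replicates lay close together and the groups far apart, which is what the test calls genes on. No overlap between the groups was a trait of all 289 called genes. Neither adds anything to the calls. Gpnmb fell by a factor of 43.6 (log2 fold change -5.45 ± 0.33, adjusted p = 0.0393; error as SE), Trem2 by 19.6 (log2 fold change -4.29 ± 0.23, adjusted p = 0.0345) and Itgax by 13.02 (log2 fold change -3.70 ± 0.20, adjusted p = 0.0345).

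The promoters of these genes and of Fasn, the lipogenic enzyme described below, are shown. These genes stand for the lower macrophage and the higher lipogenic transcripts of F-H-L. Transcription factors of the AP-1 family bind TGACTCA or TGAGTCA. The search used the looser letters TGANTCA, with any base at N. Whether these factors act on these genes was not tested. The sequences are from RefSeq (GRCm38.p6, the build mm10), 5′ to 3′ on the strand of the gene, from 250 bases before to 50 bases after the annotated start. Capitals mark TGANTCA, the ETS core GGAAGT that the macrophage factor PU.1 binds, the CCAAT box of NF-Y, and the E-box letters CACGTG and TCANGTGA, each searched on both strands.
Gpnmb, chr6:49036268-49036567, plus strand: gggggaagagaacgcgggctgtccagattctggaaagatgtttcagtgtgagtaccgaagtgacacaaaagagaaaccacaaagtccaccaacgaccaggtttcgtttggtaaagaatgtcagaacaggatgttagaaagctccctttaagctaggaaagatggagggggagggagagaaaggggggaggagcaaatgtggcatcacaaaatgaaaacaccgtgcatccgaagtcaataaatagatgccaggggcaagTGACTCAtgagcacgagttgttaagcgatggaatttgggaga
Trem2, chr17:48346151-48346450, plus strand: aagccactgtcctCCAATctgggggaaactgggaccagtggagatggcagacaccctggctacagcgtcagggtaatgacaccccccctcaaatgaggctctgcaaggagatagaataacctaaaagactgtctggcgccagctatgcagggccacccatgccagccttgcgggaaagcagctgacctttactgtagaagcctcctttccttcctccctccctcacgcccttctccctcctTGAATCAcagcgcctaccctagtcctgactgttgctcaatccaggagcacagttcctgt
Itgax, chr7:128129300-128129599, plus strand: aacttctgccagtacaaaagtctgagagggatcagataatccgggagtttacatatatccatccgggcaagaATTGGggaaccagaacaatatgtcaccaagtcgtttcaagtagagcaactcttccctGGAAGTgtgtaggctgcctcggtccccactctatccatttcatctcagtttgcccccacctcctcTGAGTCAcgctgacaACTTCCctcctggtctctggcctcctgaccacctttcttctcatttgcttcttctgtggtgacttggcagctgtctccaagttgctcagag
Fasn, chr11:120824498-120824797, minus strand: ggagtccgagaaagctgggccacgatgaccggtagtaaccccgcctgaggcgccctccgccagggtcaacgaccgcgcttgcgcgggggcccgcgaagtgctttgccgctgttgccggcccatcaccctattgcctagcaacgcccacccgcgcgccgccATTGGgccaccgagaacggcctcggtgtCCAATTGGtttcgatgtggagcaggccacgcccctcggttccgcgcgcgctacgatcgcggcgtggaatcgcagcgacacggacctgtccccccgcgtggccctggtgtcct

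Each of the 3 macrophage promoters shown, which were chosen with their matches known, holds TGANTCA letters, starting 9 bases into the transcript in Gpnmb, at position -9 in Trem2 and at -56 in Itgax. The Gpnmb match reads TGACTCA and the Itgax match TGAGTCA, whereas the Trem2 match reads TGAATCA and is neither AP-1 form. The Itgax window also holds GGAAGT at -121 and -41 and a CCAAT at -178, and the Trem2 window a CCAAT at -237. Positions count from the RefSeq start, which for Itgax lies slightly downstream of the gene start given above. Of the other genes that fell and were looked at singly, Mmp12 holds TGANTCA at -44 of its second annotated start, whereas the window of its first start, that of Lipa and those of the 3 starts of Mitf hold none. The Fasn window holds CCAAT, read on either strand, at -90, -62 and -59, the last 2 overlapping. Among 17764 promoters of 13931 genes tested, 5.94% hold TGANTCA, 26.0% GGAAGT and 37.0% CCAAT. Among the 205 promoters found for 158 of the 200 genes that fell, these shares were 10.7%, 37.6% and 35.1%. Among the 20 promoters of 16 lipogenic genes, CCAAT letters were present in 65.0%. A match shows only that the letters are there.

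The list of lipid-associated macrophage genes had 19 members tested, of which 9 fell and none rose, against 1.01% of all genes that fell. Its median log2 fold change was -1.74, against 0.015 over all genes tested. The 9 were Gpnmb, Trem2, Itgax, Mmp12, Atp6v0d2, Lipa, Lgals3, Cd9 and Cd63. Mmp12, a macrophage elastase, was at 650.0 and 1189 CPM under continuous high fat and 40.8 and 18.9 CPM after cycling (log2 fold change -4.95 ± 0.57, adjusted p = 0.0437). Lgals3, the lectin galectin-3, was at 1585 and 1310.4 CPM under continuous high fat and 198 and 166 CPM after cycling (log2 fold change -2.99 ± 0.23, adjusted p = 0.0395). Cd63, a tetraspanin of late endosomes, fell least, from 774 and 798 CPM to 298 and 262 CPM. The median over these 19 genes was -1.72 without F-H replicate 1 and -1.48 without F-H replicate 2. Spp1, the matrix protein osteopontin and a further member, was at 50.3 and 93.8 CPM under continuous high fat and 14.3 and 21.9 CPM after cycling and did not pass the test (log2 fold change -1.99 ± 0.39, adjusted p = 0.0732). Fabp4, Cd36 and Lpl, which are on this list but are made by adipocytes too, were not called.

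General macrophage markers went the same way. Of 20 tested, 8 fell and none rose, and 18 had both F-H-L libraries below both F-H libraries, which 31.2% of all genes tested did. The 8 were Cd68, Lyz2, Itgam, Tyrobp, Msr1, Ms4a7, Cd84 and Cd14. Cd68, a lysosomal glycoprotein of macrophages, was at 671 and 535 CPM under continuous high fat and 59.7 and 37.9 CPM after cycling (log2 fold change -3.63 ± 0.31, adjusted p = 0.0395). Lyz2, the myeloid lysozyme, was at 5302 and 3719 CPM under continuous high fat and 684 and 490.1 CPM after cycling (log2 fold change -2.94 ± 0.34, adjusted p = 0.0437). Adgre1, which encodes the F4/80 antigen, was at 1268 and 542 CPM under continuous high fat and 70.2 and 40.04 CPM after cycling; its F-H replicates differed over 2-fold and it did not pass the test (log2 fold change -4.04 ± 0.56, adjusted p = 0.0534). All 20 markers were higher in F-H replicate 1 than in F-H replicate 2, and their median level was 408 and 268 CPM under continuous high fat and 59.6 and 38.97 CPM after cycling. In bulk tissue, fewer macrophages and less of these RNAs per macrophage cannot be told apart, and the same holds for every cell type below.

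Genes of tissue-resident macrophages were mixed. Of 18 tested, Folr2 and Pf4 fell and Mgl2 rose. Both F-H-L libraries lay below both F-H libraries for 7 of them and above for 4, against 31.2% and 33.6% of all genes tested. The median log2 fold change was -0.16, and lay between -0.35 and -0.0074 when a library was left out. Folr2, a folate receptor, was at 89.9 and 83.9 CPM under continuous high fat and 24.3 and 19.6 CPM after cycling (log2 fold change -1.98 ± 0.18, adjusted p = 0.0409). Mgl2, a galactose-binding lectin of resident macrophages and dendritic cells, was at 9.78 and 17.4 CPM under continuous high fat and 82.2 and 90.9 CPM after cycling (log2 fold change 2.67 ± 0.32, adjusted p = 0.0458). Rnase2a, a ribonuclease of the eosinophil-associated family, had counts of 1 and 1 under continuous high fat and 927 and 509 after cycling and rose (log2 fold change 9.29 ± 0.59, adjusted p = 0.0393); with so few F-H counts its fold change is not well determined.

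**Figure D2:**
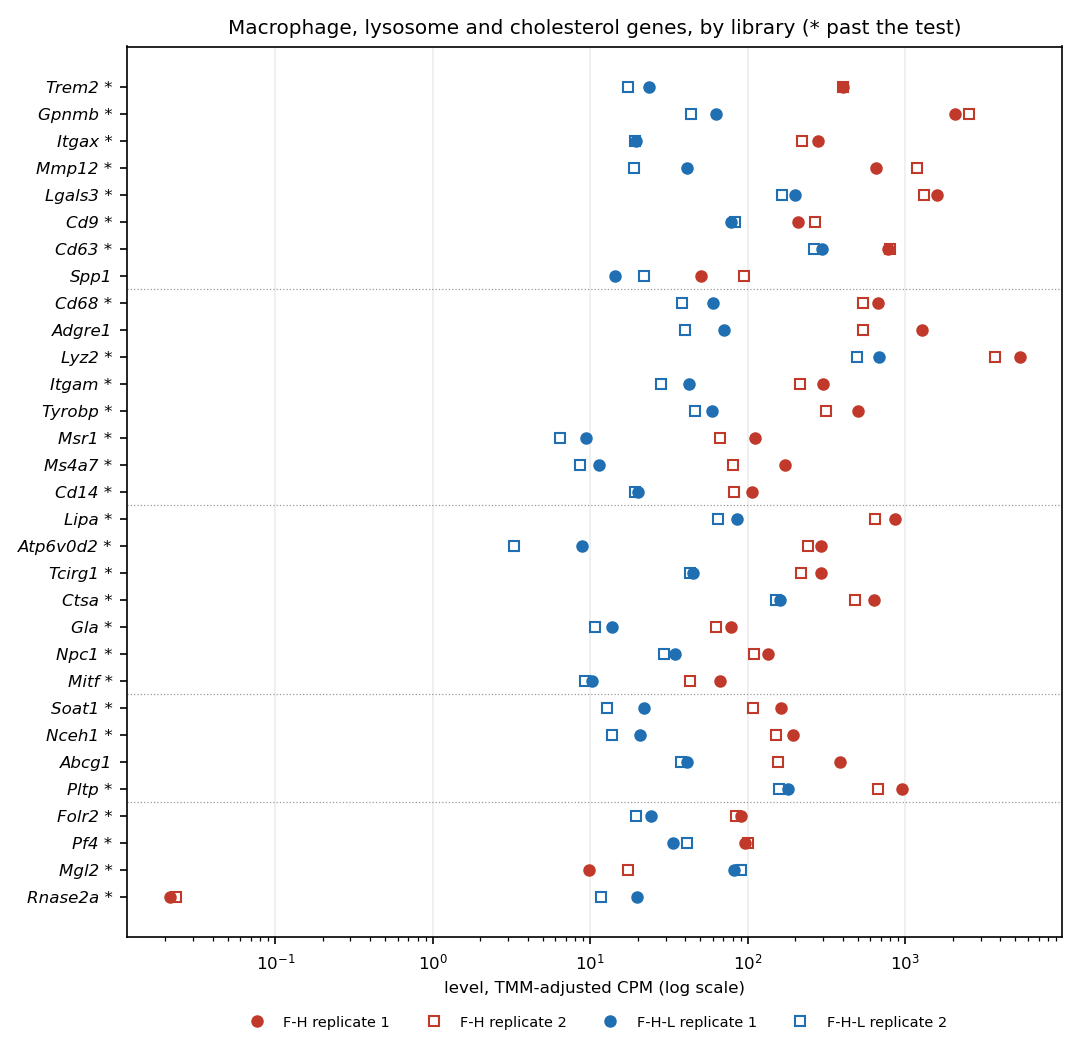
Level of each gene in each library, in TMM-adjusted CPM on a log scale; F-H in red, F-H-L in blue, filled circles for replicate 1 and open squares for replicate 2, with asterisks on genes past the test. Blocks from top to bottom hold lipid-associated macrophage, general macrophage, lysosome, cholesterol handling and resident-macrophage genes; apart from Mgl2 and Rnase2a, every gene drawn had both F-H libraries above both F-H-L libraries.

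Lysosomal genes were lower as a group. Of 24 tested, 5 fell and none rose. For 23 of them both F-H-L libraries lay below both F-H libraries, against 31.2% of all genes tested. The median log2 fold change was -1.37. Lipa, the acid lipase that frees cholesterol and fatty acids from engulfed lipid, was at 853 and 639 CPM under continuous high fat and 84.8 and 64.2 CPM after cycling (log2 fold change -3.32 ± 0.27, adjusted p = 0.0395). Atp6v0d2, the subunit of the proton pump that is most restricted to macrophages and osteoclasts, was at 293 and 240.2 CPM under continuous high fat and 8.88 and 3.29 CPM after cycling (log2 fold change -5.45 ± 0.57, adjusted p = 0.0409). The other members that fell were Npc1, which exports cholesterol from lysosomes, Gla, the alpha-galactosidase, and Ctsa, the protective cathepsin A. Their log2 fold changes were -1.94 ± 0.19, -2.53 ± 0.22 and -1.84 ± 0.21. E-box letters that the lysosomal regulators of the MiT family bind, CACGTG and TCANGTGA, were each present in 26.1% of the 23 promoters found for 17 genes of this list, against 8.95% and 4.01% of all promoters, which is a description of the list and not of the diets.

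Further lysosomal genes that fell were grouped after their values were seen. Mitf, a transcription factor of that MiT family, was at 66.1 and 42.6 CPM under continuous high fat and 10.2 and 9.27 CPM after cycling (log2 fold change -2.48 ± 0.27, adjusted p = 0.0413). Tcirg1, the pump subunit of osteoclasts, went from 293 and 216 CPM to 44.97 and 43.1 CPM (log2 fold change -2.53 ± 0.21, adjusted p = 0.0395). Atp6v1a (log2 fold change -1.48 ± 0.19), the catalytic subunit of the pump, the channels Tpcn2 (-1.78 ± 0.20) and Mcoln2 (-2.85 ± 0.31), and the enzymes Gusb (-1.88 ± 0.21) and Galc (-1.60 ± 0.17) fell too. Tnfrsf11a, the receptor RANK, was at 61.2 and 38.7 CPM under continuous high fat and 8.84 and 6.58 CPM after cycling, and Dcstamp, which macrophages need to fuse into giant cells, was at 11.9 and 10.9 CPM under continuous high fat and 1.57 and 1.89 CPM after cycling; both fell (adjusted p = 0.0437 and 0.0459).

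Of 15 genes of cholesterol efflux and of the sterol receptor LXR, 3 fell and none rose: Soat1, which esterifies cholesterol for storage in foam cells, Pltp, a phospholipid transfer protein, and Npc1. Over all genes tested, 1.01% fell. Soat1 was at 163 and 108 CPM under continuous high fat and 22.04 and 12.8 CPM after cycling (log2 fold change -2.96 ± 0.37, adjusted p = 0.0473). Nceh1, which hydrolyses stored cholesterol esters and was added after its values were seen, was at 194 and 151 CPM under continuous high fat and 20.7 and 13.7 CPM after cycling (log2 fold change -3.33 ± 0.29, adjusted p = 0.0395). Abcg1, an efflux pump, was at 383 and 156 CPM under continuous high fat and 41.3 and 37.7 CPM after cycling and did not pass the test (log2 fold change -2.77 ± 0.47, adjusted p = 0.0634). The median over the 15 genes, -0.41, was 0.024 when F-H replicate 1 was left out, -0.66 when F-H replicate 2 was and -0.24 when F-H-L replicate 1 was. None of 20 genes of cholesterol synthesis and uptake was called, and their median was 0.67, or 0.37 without F-H replicate 1. Within that list Pmvk and Mvk, kinases of the mevalonate pathway, were higher in both F-H-L libraries (log2 fold change 1.58 ± 0.27, adjusted p = 0.0634 for Pmvk and log2 fold change 1.19 ± 0.21, adjusted p = 0.0662 for Mvk).

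Among 18 complement genes, 2 receptors fell: C3ar1 was at 373 and 264 CPM under continuous high fat and 29.3 and 15.5 CPM after cycling (log2 fold change -3.83 ± 0.41, adjusted p = 0.0409), and C5ar1 at 257 and 157 CPM and 20.6 and 13.6 CPM (log2 fold change -3.60 ± 0.37, adjusted p = 0.0409). C6, a soluble component of the membrane attack complex, was the only one to rise, from 25.3 and 27.7 CPM to 95.8 and 73.98 CPM (log2 fold change 1.68 ± 0.19, adjusted p = 0.0437). Over all genes tested, 1.01% fell and 0.45% rose. The immune receptors Cd300a, Lilrb4a, Lilr4b, Pirb and Cd200r1, grouped after their values were seen, fell with log2 fold changes of -3.60 ± 0.25, -3.39 ± 0.35, -3.43 ± 0.16, -3.32 ± 0.39 and -3.42 ± 0.36; Lilrb4a and Lilr4b are close paralogs, whose reads the counting could have split. The NADPH oxidase, which makes superoxide in phagocytes, had lower transcripts of its subunits Ncf1 (-2.61 ± 0.27) and Cyba (-2.29 ± 0.28), which were also grouped afterwards. Adam8, a membrane protease of myeloid cells, was at 424 and 297 CPM under continuous high fat and 25.1 and 11.6 CPM after cycling (log2 fold change -4.30 ± 0.48, adjusted p = 0.0421). Clec4d, a lectin receptor, Rgs1, which damps chemokine signalling, Tlr13, a receptor for bacterial ribosomal RNA, and Serpinb9b, a protease inhibitor, were also among the 12 largest falls of well-expressed genes, with log2 fold changes of -5.06 ± 0.49, -4.88 ± 0.42, -4.20 ± 0.42 and -6.33 ± 0.71. Pianp, a ligand of the paired receptor PILRA, completed that set (-4.33 ± 0.33).

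Secreted cytokines and chemokines gave few calls. Of 25 tested, Ccl3 alone fell, from 8.08 and 5.68 CPM to 0.298 and 0.276 CPM (log2 fold change -4.57 ± 0.49, adjusted p = 0.0409), although 24 had a negative log2 fold change and the median was -1.96. Tnf was at 10.3 and 3.200 CPM under continuous high fat and 0.744 and 0.667 CPM after cycling (log2 fold change -3.25 ± 0.72, adjusted p = 0.0855). Ccl2, the chemokine that draws monocytes into obese fat, was at 23.1 and 40.99 CPM under continuous high fat and 16.9 and 8.15 CPM after cycling (log2 fold change -1.36 ± 0.47, adjusted p = 0.164). Without F-H replicate 1 the median over the list was -1.02.

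Lymphocyte and antigen-presentation transcripts were high in F-H replicate 1 and near the F-H-L level in F-H replicate 2. The median level of 24 T and NK cell genes was 20.7 and 2.35 CPM under continuous high fat and 2.13 and 2.09 CPM after cycling. All 24 were higher in F-H replicate 1 than in replicate 2, as were all 19 B and plasma cell genes and 18 of 19 genes of MHC class II and dendritic cells. Cd3e, a chain of the T cell receptor complex, was at 19.4 and 2.13 CPM under continuous high fat and 1.49 and 1.496 CPM after cycling (log2 fold change -2.85 ± 1.07, adjusted p = 0.183). Jchain, which joins secreted antibodies, was at 656 and 100.3 CPM and 53.96 and 64.7 CPM (log2 fold change -2.67 ± 0.89, adjusted p = 0.158). On these 3 lists Il7r, the receptor for interleukin 7, was the only gene to fall. It was at 115 and 78.5 CPM under continuous high fat and 7.57 and 4.03 CPM after cycling (log2 fold change -4.06 ± 0.41, adjusted p = 0.0409), and thus was high in both F-H libraries, unlike the T cell receptor genes. The median log2 fold changes of the T and NK, B and plasma, and MHC class II lists were -2.20, -1.39 and -2.16, and became -0.073, -0.47 and -0.37 without F-H replicate 1. Interferon-response genes followed the same library, with a median of -0.47 and of 0.46 without it (down to -0.98 without F-H replicate 2), and none of the 20 was called. The macrophage list, by contrast, had a median of -2.07 without that library, against -2.87 with it.

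**Figure D3:**
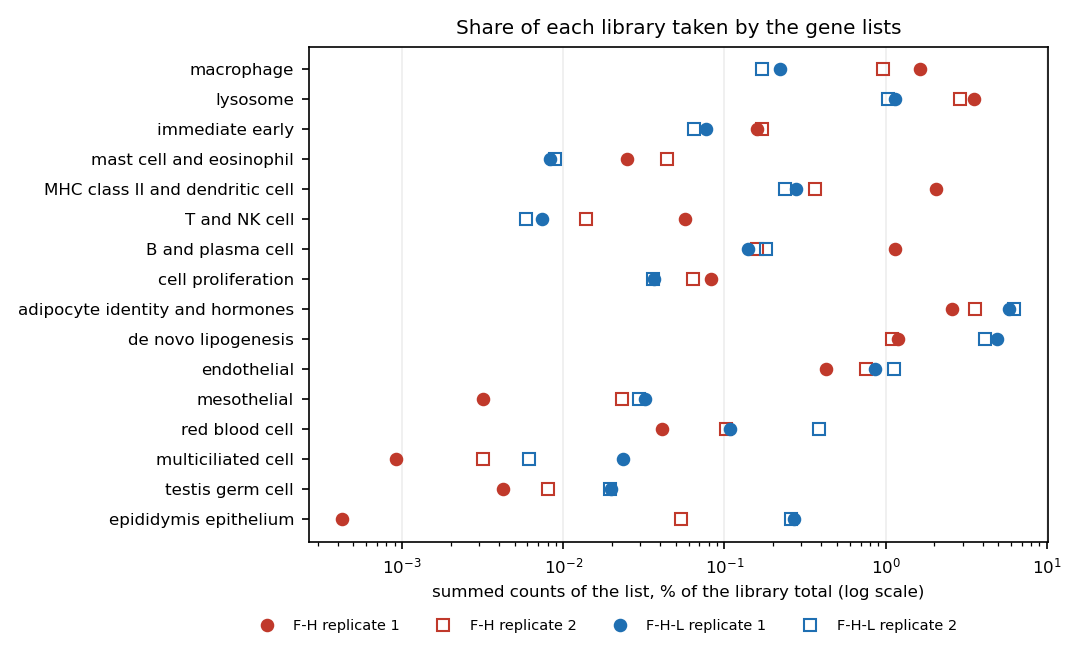
Summed counts of each gene list as a percentage of the library total, on a log scale; F-H in red, F-H-L in blue, filled circles for replicate 1 and open squares for replicate 2. Both F-H libraries lie above both F-H-L libraries for macrophage, lysosome and immediate early genes, while F-H replicate 1 stands apart as high for T, B and MHC class II genes and as low for mesothelial and epididymis genes.

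Most mast cell and eosinophil transcripts were higher in both F-H libraries, and for most of these genes replicate 2 was the higher. Of 14 tested, 2 fell and none rose. Both F-H-L libraries lay below both F-H libraries for 11, against 31.2% of all genes tested. Kit, also on the list, differed little (log2 fold change -0.29), and Hdc and Gata2 were positive (0.58 and 0.44). Cpa3, a mast cell carboxypeptidase, was at 33.5 and 49.8 CPM under continuous high fat and 3.15 and 4.03 CPM after cycling (log2 fold change -3.54 ± 0.30, adjusted p = 0.0395). Mcpt4, a mast cell chymase, was at 54.95 and 98.6 CPM under continuous high fat and 7.16 and 10.9 CPM after cycling (log2 fold change -3.09 ± 0.39, adjusted p = 0.0489). Neutrophil genes gave no call in 11 tested, with a median log2 fold change of 1.40. Their leading member, Ltf, which secretory epithelia also make, was at 0.959 and 1.66 CPM under continuous high fat and 46.6 and 12.1 CPM after cycling, while Csf3r, the neutrophil growth factor receptor, went the other way, at 29.8 and 12.2 CPM and 4.31 and 2.44 CPM.

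In the stroma, 1 of 30 extracellular matrix genes was called. Mmp2, a gelatinase of fibroblasts, was at 213 and 286 CPM under continuous high fat and 55.2 and 66.8 CPM after cycling (log2 fold change -2.03 ± 0.23, adjusted p = 0.0421). The list had 21 members with a negative log2 fold change and a median of -0.61. Col1a1, the main fibrillar collagen chain, was at 833 and 886 CPM under continuous high fat and 564 and 561 CPM after cycling (log2 fold change -0.61 ± 0.18, adjusted p = 0.131), and Col6a3, a collagen of the adipocyte's surroundings, at 419.5 and 457 CPM and 283 and 221 CPM (log2 fold change -0.80 ± 0.20, adjusted p = 0.104). Each had both F-H-L libraries below both F-H libraries, which 31.2% of all genes tested did. Neither difference passed the test. Mmp19, a further matrix protease added after its values were seen, fell with a log2 fold change of -1.91 ± 0.19 (adjusted p = 0.0409).

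None of 18 adipose progenitor genes was called, and their median, -0.30, was 0.34 without F-H replicate 2 and -0.14 without F-H-L replicate 1. Pdgfra, the receptor that marks progenitors, was at 141 and 161 CPM under continuous high fat and 77.1 and 68.7 CPM after cycling (log2 fold change -1.05 ± 0.16, adjusted p = 0.0572). Endothelial genes pointed the other way: all 15 had a positive log2 fold change, none was called, and the median was 0.73, or 0.37 with F-H replicate 1 left out and 1.28 with the other F-H library left out. Pecam1, the adhesion molecule CD31 of endothelium, was at 142 and 246 CPM under continuous high fat and 269 and 353 CPM after cycling (log2 fold change 0.68 ± 0.32, adjusted p = 0.247). Nid2, a basement membrane protein added after its values were seen, rose from 93.2 and 84.3 CPM to 335 and 271 CPM (log2 fold change 1.77 ± 0.19, adjusted p = 0.0409). Mesothelial and smooth muscle lists gave no call and were lowest in F-H replicate 1; the median mesothelial level was 0.213 and 11.98 CPM under continuous high fat and 10.8 and 13.5 CPM after cycling.

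**Figure D4:**
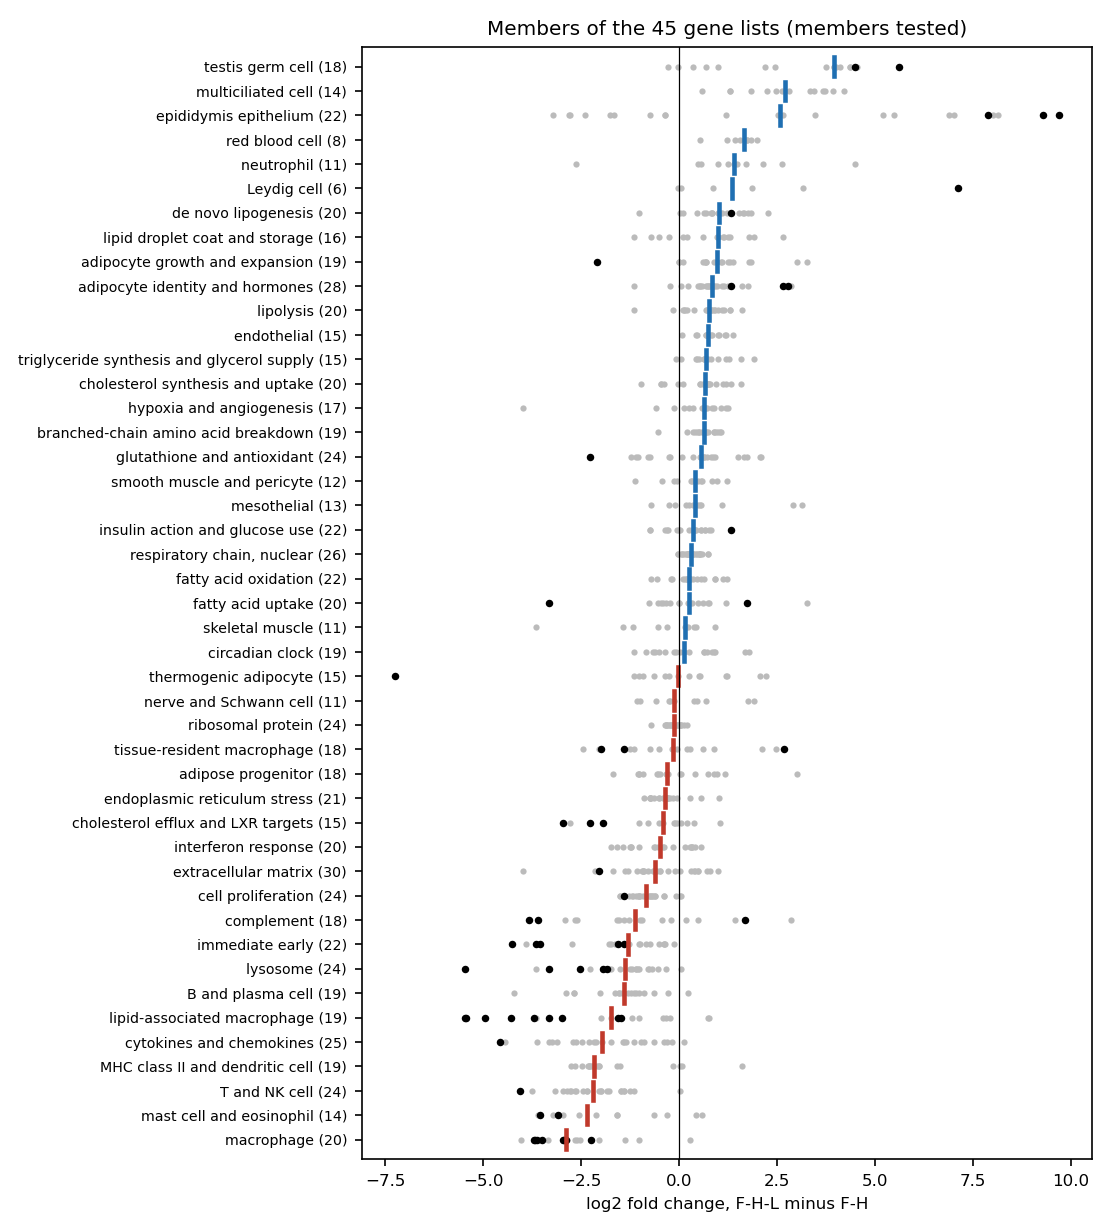
Log2 fold change, F-H-L minus F-H, of every tested member of the 45 gene lists (number tested in parentheses), with called genes in black, other genes in grey and a bar at each list's median, red below 0 and blue above. By median, macrophage, T and NK cell and lysosome lists lie to the left and adipocyte and lipogenic lists to the right. The testis germ cell, ciliated cell and epididymis medians lie farthest right.

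Adipocyte genes were higher in F-H-L, by smaller factors than the macrophage genes were lower. Of 28 tested, 3 rose, none fell, 24 had both F-H-L libraries above both F-H libraries, which 33.6% of all genes tested did, and the median log2 fold change was 0.85. Retn, the hormone resistin, was at 198 and 188 CPM under continuous high fat and 1091 and 1580.0 CPM after cycling (log2 fold change 2.79 ± 0.27, adjusted p = 0.0409). Rbp4, the retinol carrier secreted by fat and liver, was at 96.8 and 124 CPM under continuous high fat and 671 and 724 CPM after cycling (log2 fold change 2.66 ± 0.21, adjusted p = 0.0395). Slc2a4, the insulin-responsive glucose transporter GLUT4, was at 51.8 and 54.4 CPM under continuous high fat and 122 and 145 CPM after cycling (log2 fold change 1.33 ± 0.16, adjusted p = 0.0468). In all 3 the F-H replicates were within 1.5-fold of each other, and close replicates are part of what the test calls genes on. The groups did not overlap, which held for all 289 called genes. Neither adds anything to the call. Cfd, the protease adipsin, was at 198 and 348 CPM under continuous high fat and 1578 and 2374 CPM after cycling and missed the threshold (log2 fold change 2.86 ± 0.40, adjusted p = 0.0534).

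The other adipocyte hormones differed less. Lep, which encodes leptin, was at 1009.8 and 2085 CPM under continuous high fat and 2694 and 2416 CPM after cycling (log2 fold change 0.72 ± 0.40, adjusted p = 0.305); F-H replicate 2 lay near the F-H-L libraries. Adipoq, at the levels given above, did not pass the test either (log2 fold change 0.93 ± 0.32, adjusted p = 0.165). Pparg, the master regulator of adipocytes, was at 130.4 and 117 CPM under continuous high fat and 179.7 and 168 CPM after cycling (log2 fold change 0.49 ± 0.15, adjusted p = 0.144). Mest, a gene that rises in expanding fat cells, was at 77.99 and 269 CPM under continuous high fat and 495 and 415 CPM after cycling, with a larger gap on the log2 scale between the F-H replicates than between the groups (log2 fold change 1.39 ± 0.60, adjusted p = 0.217). On the list of adipocyte growth genes, Gdf15, a stress hormone, was the only call, and it fell, from 15.05 and 14.2 CPM to 3.49 and 3.31 CPM (log2 fold change -2.10 ± 0.27, adjusted p = 0.0496).

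Lipogenic enzymes were higher in F-H-L, and the main ones missed the threshold. Scd1, which desaturates stearate to oleate, took 0.738% and 0.638% of all counts under continuous high fat and 3.69% and 3.11% after cycling. Its level was 7743 and 6244 CPM under continuous high fat and 35538 and 31587 CPM after cycling, a factor of 4.799 (log2 fold change 2.26 ± 0.37, adjusted p = 0.0613). Fasn, the fatty acid synthase (chromosome 11, 120805958 to 120824547, minus strand, promoter shown above), was at 1535 and 1331 CPM under continuous high fat and 4733 and 3609 CPM after cycling (log2 fold change 1.54 ± 0.27, adjusted p = 0.0662). Elovl6, which lengthens palmitate, was at 20.6 and 18.7 CPM under continuous high fat and 80.1 and 52.8 CPM after cycling (log2 fold change 1.76 ± 0.25, adjusted p = 0.0534). Both F-H-L libraries lay above both F-H libraries for 33.6% of all genes tested, so this trait of the 3 genes is a common one. None of the 3 overlapped between the groups, and all 3 were called by DESeq2, with adjusted p-values of 6.5e-14, 4.17e-06 and 6.23e-06; over all the alternatives their adjusted p-values ran from 6.5e-14 to 0.568, 4.17e-06 to 0.517 and 6.63e-11 to 0.345.

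Of the 20 lipogenic genes, 1 rose and none fell. For 16 of them both F-H-L libraries lay above both F-H libraries, against 33.6% of all genes tested. The median log2 fold change was 1.03. The gene that rose was Pnpla3, a lipid droplet protein controlled by the same lipogenic factors, at 169 and 167 CPM under continuous high fat and 391 and 446 CPM after cycling (log2 fold change 1.32 ± 0.17, adjusted p = 0.0494). Acly, which supplies acetyl-CoA from citrate, stood at 437 and 304 CPM under continuous high fat and 594 and 423 CPM after cycling, and the groups overlapped (log2 fold change 0.46 ± 0.28, adjusted p = 0.348). The lipogenic regulators Srebf1, or SREBP-1, and Mlxipl, or ChREBP, had log2 fold changes of 0.69 ± 0.23 (adjusted p = 0.154) and 1.06 ± 0.17 (adjusted p = 0.0608). The median over the list was 0.93 without F-H replicate 1 and 1.19 without F-H replicate 2.

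**Figure D5:**
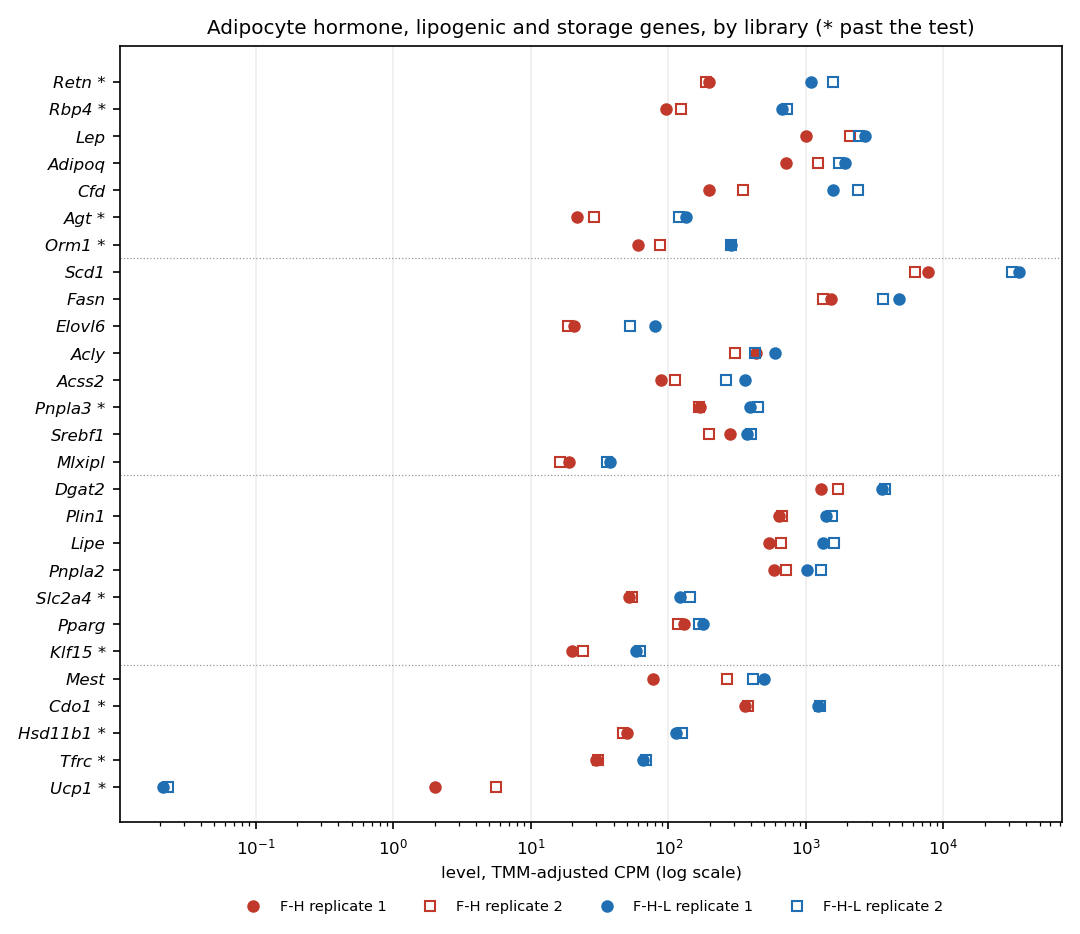
Level of each gene in each library, in TMM-adjusted CPM on a log scale, with the same colours and markers as the plot of macrophage genes and asterisks on genes past the test. Blocks hold hormones and secreted proteins, lipogenic genes, storage and regulatory genes, and a last block with Ucp1; Scd1, Fasn and Elovl6 had both F-H-L libraries above both F-H libraries without an asterisk, and Lep and Mest had an F-H replicate 1 well below replicate 2.

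Lists of fat storage and fat release had positive medians and no call. The median log2 fold change was 0.99 over 16 lipid droplet genes, 0.68 over 15 genes of triglyceride synthesis and 0.78 over 20 genes of lipolysis. Plin1, the coat protein of the adipocyte's lipid droplet, was at 643 and 674 CPM under continuous high fat and 1395 and 1551 CPM after cycling (log2 fold change 1.16 ± 0.20, adjusted p = 0.0643). Dgat2, which makes triglyceride, was at 1287 and 1722 CPM under continuous high fat and 3594 and 3736 CPM after cycling (log2 fold change 1.28 ± 0.27, adjusted p = 0.0778). Lipe, the hormone-sensitive lipase that breaks it down, was at 536 and 664 CPM under continuous high fat and 1336 and 1602 CPM after cycling (log2 fold change 1.29 ± 0.23, adjusted p = 0.0669), and Pnpla2, the lipase that acts before it, at 582 and 720.3 CPM and 1022 and 1297 CPM (log2 fold change 0.83 ± 0.24, adjusted p = 0.127). Without F-H replicate 1 the lipolysis median was 0.48, and 1.11 without replicate 2.

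None of 22 fatty acid oxidation genes and none of 26 nuclear genes of the respiratory chain was called, with medians of 0.26 and 0.32. The oxidation median was 0.45 without F-H replicate 2 and 0.18 without F-H-L replicate 2. Of the respiratory chain genes, 19 of 26 had both F-H-L libraries above both F-H libraries, against 33.6% of all genes. Cpt1a, which admits fatty acids to mitochondria, was lower in both F-H-L libraries, at 233 and 201 CPM under continuous high fat and 132 and 132 CPM after cycling (log2 fold change -0.72 ± 0.16, adjusted p = 0.0859). Branched-chain amino acid breakdown had 18 of 19 genes with both F-H-L libraries above both F-H libraries, a median of 0.63 and no call; its lowest adjusted p was that of Ivd, the isovaleryl-CoA dehydrogenase, at 72.5 and 86.5 CPM under continuous high fat and 169 and 160.3 CPM after cycling (log2 fold change 1.05 ± 0.17, adjusted p = 0.0575). Ucp1, the uncoupling protein of brown and beige adipocytes, had counts of 95 and 238 under continuous high fat and 1 and 1 after cycling and fell (log2 fold change -7.25 ± 0.92, adjusted p = 0.0494). The counts were low in every library, and the other 14 thermogenic genes tested gave no call, with a list median of -0.012 that ran from -0.28 without F-H replicate 1 to 0.35 without F-H replicate 2.

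Several further rises among genes with at least 5 CPM in F-H were grouped after their values were seen. Agt, the precursor of angiotensin, was at 21.8 and 28.9 CPM under continuous high fat and 133 and 119 CPM after cycling (log2 fold change 2.32 ± 0.21, adjusted p = 0.0402). Cdo1, which oxidises cysteine on the way to taurine, was at 359.8 and 379 CPM under continuous high fat and 1233 and 1268 CPM after cycling (log2 fold change 1.76 ± 0.19, adjusted p = 0.0409). Hsd11b1, which regenerates active glucocorticoid, was at 50.1 and 47.1 CPM under continuous high fat and 113 and 127 CPM after cycling (log2 fold change 1.30 ± 0.15, adjusted p = 0.0437). Klf15, a transcription factor that glucocorticoids induce, Orm1, an acute-phase plasma protein with close paralogs, Timp4, a metalloproteinase inhibitor, Tfrc, the transferrin receptor, and Cib2, a calcium-binding protein, had log2 fold changes of 1.46 ± 0.18, 1.96 ± 0.23, 2.23 ± 0.27, 1.15 ± 0.15 and 1.57 ± 0.19. Apoc1, an apolipoprotein on the list of fatty acid uptake, rose from 28.99 and 26.2 CPM to 81.2 and 102 CPM (log2 fold change 1.73 ± 0.19, adjusted p = 0.0409).

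Immediate early genes, which cells switch on quickly after a stimulus, were lower in F-H-L. All 22 tested had a negative log2 fold change, 5 fell, and the median was -1.31. For 20 of them both F-H-L libraries lay below both F-H libraries, against 31.2% of all genes tested. Atf3, a stress-induced partner of AP-1, was at 205 and 154 CPM under continuous high fat and 12.9 and 5.91 CPM after cycling (log2 fold change -4.25 ± 0.46, adjusted p = 0.0409). Fos, a subunit of AP-1, was at 107 and 159.6 CPM under continuous high fat and 13.7 and 7.46 CPM after cycling (log2 fold change -3.65 ± 0.40, adjusted p = 0.0421). Junb, another subunit, Egr2, a zinc finger factor, and Zfp36, which destabilises cytokine messages, fell with log2 fold changes of -1.55 ± 0.16, -3.54 ± 0.36 and -1.39 ± 0.15.

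Among other stress and growth lists, Hmox1, the heme oxygenase that breaks down heme and is induced by oxidative stress, was at 242 and 271 CPM under continuous high fat and 57.3 and 49.2 CPM after cycling (log2 fold change -2.27 ± 0.18, adjusted p = 0.0395), the only call in 24 antioxidant genes. Pcna, the sliding clamp of DNA replication, was at 187 and 148 CPM under continuous high fat and 65.1 and 61.5 CPM after cycling (log2 fold change -1.41 ± 0.18, adjusted p = 0.0496), the only call in 24 proliferation genes, of which 22 had a negative log2 fold change. The median over that list was -0.85, and -0.52 without F-H replicate 1. None of 21 endoplasmic reticulum stress genes, 17 hypoxia genes, 19 clock genes and 24 ribosomal protein genes was called, with medians of -0.36, 0.63, 0.13 and -0.14. Without F-H replicate 1 these medians were -0.20, 0.34, 0.014 and -0.047. The hypoxia median was 1.06 without F-H replicate 2. The ribosomal median ran from -0.27 to -0.025 over the fits that left out a library and changed sign with upper-quartile factors.

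Genes of the epididymis made up the 12 largest rises of well-expressed genes, apart from Rnase2a. Of the 89 genes that rose, 40 had a mean under 1 CPM in F-H, and 7 of 22 beta-defensin genes tested were among the 89. The share that rose was 0.45% over all genes tested. Defb28, an antimicrobial peptide of the epididymis, had counts of 17 and 29 under continuous high fat and 5782 and 5345 after cycling. Defb40 had none in either F-H library and 422 and 429 after cycling, which makes it at least 140.5-fold higher in F-H-L against a floor of 3 counts per library. Pate2, a protein of epididymal fluid, had counts of 2 and 3 under continuous high fat, against 1875 and 2494 after cycling. Bsph2, which binds sperm, had counts of 0 and 3 under continuous high fat, against 963 and 1104 after cycling. The beta-defensins Defb22, Defb26, Defb38 and Defb39, the related Pate1, and the protease inhibitor family members Spint3, Wfdc9 and Wfdc13 completed these rises. Genes of these families are similar in sequence, and the counting could have split reads between them. Odf1, a structural protein of the sperm tail, had counts of 16 and 21 under continuous high fat and 800 and 1048 after cycling, and Akap4, another, had counts of 8 and 15 and 299 and 241. Cyp17a1, an enzyme of androgen synthesis in Leydig cells of the testis, had counts of 10 and 3 and 1149 and 720. All the genes of this paragraph had adjusted p-values of at most 0.0496.

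Epididymis genes took 0.000427% and 0.0535% of all counts under continuous high fat and 0.269% and 0.259% after cycling. The 95% Wilson intervals, which cover counting error only, were 0.000373% to 0.000488% and 0.0528% to 0.0542% for the former, and 0.268% to 0.271% and 0.258% to 0.261% for the latter. Testis germ cell genes took 0.00422% and 0.00808% under continuous high fat and 0.0198% and 0.0196% after cycling. Of the 22 epididymis genes tested, 3 rose and 13 had a positive log2 fold change. The other 9 were negative, down to -3.23 for Gpx5, and none of them had both F-H-L libraries below both F-H libraries. Of the 18 germ cell genes 2 rose and 16 were positive. Over all genes tested, 0.45% rose. In summed share these transcripts moved with the adipocyte genes, since both were higher in F-H-L. Their part in the rises was not tested. F-H replicate 1, which had the lower epididymis share, was also the lower F-H library for most adipocyte genes: 5 of 28 were higher in it than in replicate 2, and the median log2 ratio of replicate 1 to replicate 2 was -0.50.

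The continuous low-fat libraries give these levels a frame, with no test, since they were not fitted and the F-H libraries would serve both comparisons. The values are the authors' RPKM, reads scaled by gene length and library total, without the TMM factors. Gpnmb was at 8.86 and 5.25 RPKM on low fat, 519 and 684 on high fat and 17.1 and 11.3 after cycling. Trem2 was at 7.14 and 5.93 RPKM on low fat, 332 and 359 on high fat and 21.2 and 15.00 after cycling. Cd68 was at 10.1 and 22.6 RPKM on low fat, 513 and 438 on high fat and 49.7 and 29.96 after cycling. For these macrophage genes the F-H-L libraries lay much nearer to the low-fat libraries than to the F-H libraries. Among adipocyte genes, Retn was at 70.9 and 543 RPKM on low fat, 147 and 149 on high fat and 880.4 and 1210.1 after cycling, and Scd1 at 360.5 and 4173, 1526 and 1318 and 7629.6 and 6437. The F-L libraries were far apart for both. Defb28 was at 4122 and 512 RPKM on low fat, 0.8698 and 1.74 on high fat and 321 and 305 after cycling, so that this epididymal transcript was most abundant in the low-fat libraries.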

How the data were processed

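Fat from the epididymal depot was profiled by sequencing of messenger RNA with a TruSeq kit, per the labels' protocols. The deposited table holds raw read counts of genes in every library and RPKM, which the authors derived from those counts: the library totals implied by the deposited RPKM matched the summed counts within a relative 1e-06 for 100% of genes with over 50 counts. A further deposited column, the gene length in bases, is in another unit. The tools named per the submitters' processing notes are bcl2fastq, HISAT2 2.1.0 and HTSeq, with build mm10; the release of the annotation and the use of strand in counting are not given here, so reads of overlapping and antisense genes cannot be told apart. In the table, 27 symbols turned into dates were restored by Entrez ID.

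The 4 libraries were fitted alone in edgeR 4.0.16 (R 4.3.3; TMM factors, filterByExpr, glmQLFit and glmQLFTest, two-sided, 2 residual degrees of freedom), with Benjamini-Hochberg adjustment over the 19779 genes tested and a threshold of 0.05. The standard error was the log2 fold change divided by the root of F. The code was tested on simulated data. A count of 0 allows up to 0.0638 to 0.0701 CPM (3 counts), covering counting error only. Gene lists (45) were matched by symbol, or by Entrez ID where the symbol was absent, and are described by counts and medians. A rule took the 12 strongest called genes in each direction by fold change (mean of at least 5 RPKM in the higher group). It also took 3 members per list by smallest p, and a fixed set of adipocyte, macrophage and stromal genes. The text names only part of these, and for some lists no member. The genes said to be grouped afterwards were chosen after their values were seen. The members of the lists and the rule were chosen with earlier results of these data known. Replicate numbers do not pair the samples: the labels give no shared source, and the deviations of same-numbered libraries correlated at -0.017 over genes. Alternatives used other scaling factors, filters and thresholds, DESeq2 1.42.0, limma 3.58.1 on log2(RPKM + 1) or log2(RPKM + 0.1), all 6 libraries, a replicate block, and each library left out. RefSeq promoters (GRCm38.p6) were matched by Entrez ID.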

Additional observations from a re-analysis of the deposited data

How the results depend on the processing

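The 289 calls (89 higher, 200 lower) were 172 (55 higher, 117 lower) with upper-quartile factors, which shifted the median of all genes to 0.16, 4638 (2477 and 2161) with no filter on low counts, and 2033 (884 and 1149) at an adjusted p under 0.1. DESeq2 gave 3559 (1799 and 1760), limma on log2(RPKM + 1) 981 (521 and 460), and limma on log2(RPKM + 0.1) 1045 (514 and 531). The fit of all 6 libraries gave 0 in either direction, with 2362 genes at an unadjusted p under 0.05. Leaving out each library gave 0 to 6663 calls, 0 to 3616 higher and 0 to 3047 lower; in these fits the lone library is assumed to vary like the other group. Since the replicate numbers do not pair the samples, the block was only an alternative, and it gave 574 calls (150 and 424). Median-ratio factors, the RPKM filter and robust empirical Bayes stayed within 1.5 times of 289. The 2-fold threshold removed none of the calls, since all 289 differed at least 2-fold, and so says nothing of their stability. Of 199 genes taken by the rule or added afterwards, 1 changed sign. This was Tnnc2, a muscle troponin that was not called, with a log2 fold change of -3.66. Its range was -4.64 to 2.41 over the fits that left out a library, the latter without F-H replicate 2. Of 45 list medians, 9 changed sign under some alternative and 31 moved by over 1.5 times; the cause was not tested. At this depth, genes with counts near 0 in F-H have poorly determined fold changes.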

Other observations

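Multiciliated cell genes, which build motile cilia, were higher in the F-H-L libraries, and mostly in replicate 1. All 14 tested had a positive log2 fold change and none was called. For 13 of them both F-H-L libraries lay above both F-H libraries, against 33.6% of all genes tested. Their median was 2.72, or 1.69 without F-H-L replicate 1 and 4.88 without F-H replicate 2. Foxj1, the factor that switches on the cilium programme, was at 1.09 and 4.84 CPM under continuous high fat and 71.6 and 17.99 CPM after cycling (log2 fold change 3.92 ± 1.02, adjusted p = 0.11, edgeR). Red blood cell genes were highest in F-H-L replicate 2. Their median level was 24.9 and 46.5 CPM under continuous high fat and 51.2 and 202 CPM after cycling, none of 8 was called, and the median log2 fold change of 1.65 was 0.49 without F-H-L replicate 2.

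Genes of insulin action and glucose use had a median log2 fold change of 0.36 over 22 members, with Slc2a4 as the only call. Gys1, the glycogen synthase, was at 43.4 and 49.5 CPM under continuous high fat and 80.9 and 82.7 CPM after cycling (log2 fold change 0.82 ± 0.15, adjusted p = 0.0687, edgeR). Of 20 fatty acid uptake genes, Apoc1 rose and Lipa fell, and the median was 0.25, or 0.16 without F-H replicate 1 and 0.019 without F-H-L replicate 2. The list of 19 adipocyte growth genes had 17 positive log2 fold changes and a median of 0.97, although its single call, Gdf15, was a fall. Vegfa, the growth factor for blood vessels, was at 51.4 and 63.98 CPM under continuous high fat and 107 and 108 CPM after cycling (log2 fold change 0.90 ± 0.17, adjusted p = 0.071, edgeR). Among 6 Leydig cell genes tested, Cyp17a1 rose, whereas Insl3, a hormone of the same cells, was at 1.13 and 0.677 CPM and 15.2 and 1.105 CPM, high in F-H-L replicate 1 alone. Skeletal muscle and nerve lists gave no call, with medians of 0.17 and -0.12 that changed sign when a library was left out.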
